A study of Homo sapiens with 12 samples.

Results

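The response to serum starvation was described in HCT116 cells that carry a KDM3A knockout (KO), by setting the starved KO culture beside the KO culture in normal medium. A gene was compared if it was at 1 FPKM or more in either of these cultures, and 12716 of 26372 features passed; 12098 were at 1 FPKM or more in both, 306 in normal medium only and 312 in starved cells only. FPKM is a transcript level, sequenced fragments scaled by transcript length and by the size of the library, and each difference is the log2 ratio of (FPKM + 1), starved over normal medium. Just inside the threshold were TSPAN5 at 1.00012 and 0.475 FPKM in normal and serum-free medium and MX1 at 0.719 and 1.00062, and just outside it were ZNF530 at 0.999608 and 0.756 and ITPKB at 0.868 and 0.999612.

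HCT116 is a human colorectal carcinoma line. Polyadenylated RNA was sequenced from wild-type (WT) and KDM3A-knockout cells in 3 culture states: normal medium (mock), medium without serum (starved), and serum-free medium to which fetal bovine serum was added after 24 h (refed). How long the starved groups went without serum, how long serum was present in the refed groups, how the knockout was made and whether it is 1 clone are not given in the sources used here. Each of the 6 groups has 2 labelled samples and 1 deposited column of values, so there is no spread between replicates and no test, and a difference is called by its size alone.

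Serum supplies growth factors, lipoproteins and other signals. Without it, cultured cells typically lower growth factor signalling through ERK and PI3K and, when lipoproteins run short, the sterol-sensing factor SREBP2 is released to switch on cholesterol synthesis. KDM3A is a demethylase of histone H3 lysine 9 and is itself a target of hypoxia-inducible factor (HIF), which drives glycolysis and other genes when its hydroxylases are inhibited by low oxygen.

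KDM3A itself was at 3.15 FPKM in KO mock cells, 3.01 in starved and 3.59 in refed ones, against 41.3, 17.8 and 19.8 in the WT states, so the labels and the target gene match. Of 7 markers chosen for a colorectal epithelial line 6 were at 1 FPKM or more in KO cells. EPCAM was at 203 and 189 FPKM in mock and starved cells, CDX2 at 7.10 and 9.24, and villin (VIL1) was listed at 0 and 0.0378. On a wider list of 23 intestinal differentiation genes only 5 reached 1 FPKM in KO mock or starved cells. CDX1, MUC2 and FABP1 were among those that did not. None of 5 endothelial and none of 4 leukocyte markers reached 1 FPKM in KO cells, and of 5 fibroblast markers only the collagen COL1A1 did, at 18.7 and 26.7 FPKM. On wider lists EGFL7 and ESAM, 2 of 16 endothelial genes, were at 84.3 and 5.19 FPKM in mock and 63.8 and 4.07 in starved cells, and CD68, 1 of 10 leukocyte genes and a lysosomal protein, at 32.9 and 18.6. In bulk RNA, fewer cells of a type and less RNA per cell cannot be told apart. The read depth is unknown. Low values may carry a trace of it. Among 1709 genes under 0.05 FPKM in both KO columns, the 4 most frequent mock to starved ratios were 0.926, 1.002, 1.07 and 1.16. Only 53, 63, 69 and 60 genes lay within 0.5% of these, and the number of values sought was set in advance. The 2 most frequent ratios of WT starved to each KO column, sought likewise, give 0.925, 1.002, 1.07 and 1.16 when divided. Whether each KO column holds smallest steps of several sizes was not tested. How the labelled samples of a group enter its column is not given in the sources used here.

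Most genes differed little between starved and mock KO cells. Over the 12446 compared genes left when short RNA features are set aside, the median log2 ratio was -0.07 and 91.4% lay within 1.5-fold. Of these genes 7359 were below 0 and 5087 above it on the deposited scale, and the counts were near even after rescaling (6264 and 6182 by the median ratio, 6142 and 6304 by the upper quartile), so a count of signs in a list is read beside these. A difference of 2-fold or more was seen for 33 genes higher in starved cells (0.265%) and 109 lower (0.876%), and of 1.5-fold or more for 340 higher (2.73%) and 734 lower (5.9%). The split depends on how the columns are scaled: 49 were higher and 85 lower at 2-fold after median-ratio rescaling, and 52 and 80 after upper-quartile rescaling. The 2-fold and 1.5-fold shares of all genes given here and below are on the deposited scale. No 1.5-fold share was computed after rescaling, so rescaled 1.5-fold counts have no matching share beside them. With a pseudocount of 5 in place of 1, 7 genes were higher and 36 lower at 2-fold, and with 0.1 these counts were 122 and 231. Over all 12716 features the counts were 128 higher (1.01%) and 159 lower (1.25%), and the majority turned to 147 and 132, or 151 and 127, under the same rescalings.

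Short RNA features, mostly small nucleolar RNAs, which a library of polyadenylated RNA does not target, made up 270 of the compared features but 95 of the 128 higher and 50 of the 159 lower. Of those 95, 62 were listed at 0 in mock cells, and of the 50, 37 were listed at 0 in starved cells. SNORD44 was listed at 0 in mock, 124 FPKM in starved and 68.4 in refed KO cells, and SNORD18C at 86.3, 0 and 0. They are left out of what follows.

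**Figure D1:**
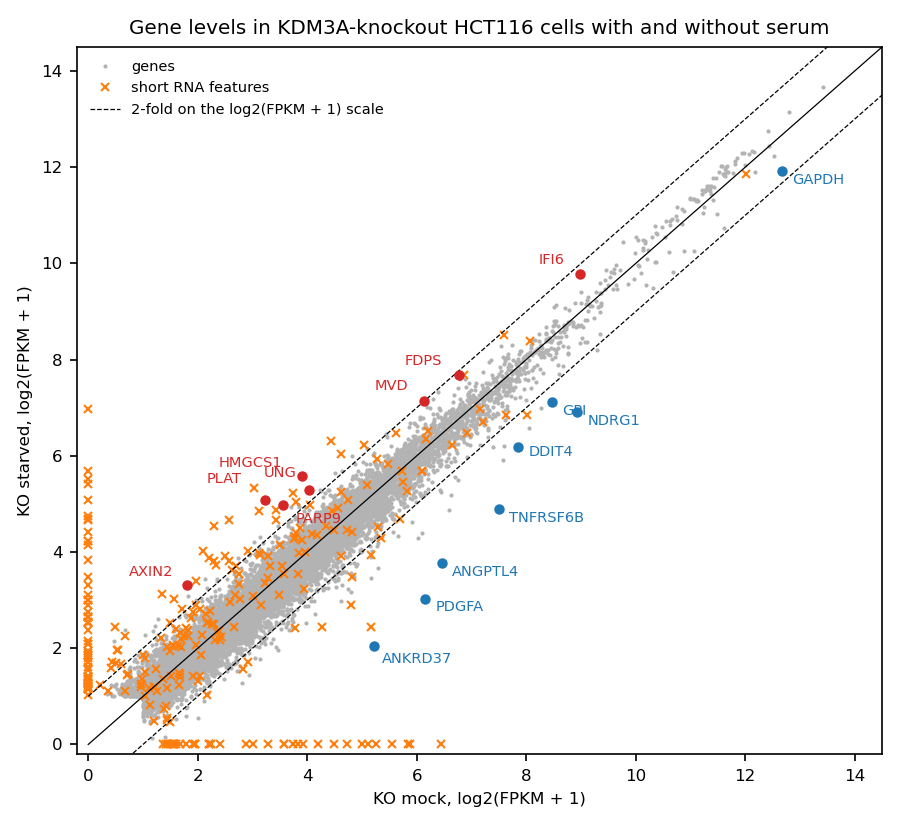
Levels of the 12446 genes (grey) and 270 short RNA features (orange crosses) in KDM3A-knockout cells, as log2(FPKM + 1) in mock (horizontal) and starved (vertical) culture, 1 value per group. Dashed lines mark 2-fold; named genes far below the diagonal include ANKRD37 and PDGFA, those above it include PLAT and HMGCS1, and many short RNA features lie on an axis because they are listed at 0 in 1 culture.

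The largest differences in the KO response were on the lower side, among genes known to be induced by HIF in hypoxia. ANKRD37, a small ankyrin-repeat protein and HIF target, was at 36.3 FPKM in mock, 3.12 in starved and 31.8 in refed KO cells (log2 ratio of starved to mock -3.18). PDGFA, a growth factor chain, was at 70.4, 7.18 and 14.6 FPKM (-3.13). ANGPTL4, a secreted inhibitor of lipoprotein lipase, was at 87.1, 12.6 and 35.5 FPKM (-2.70). In refed cells ANKRD37 was close to its mock level, whereas PDGFA and ANGPTL4 were below theirs. NDRG1, a stress-responsive protein, was at 488, 119 and 151 FPKM (-2.02), and LOXL2, a collagen cross-linking oxidase, at 64.3, 18.6 and 20.9 (-1.74). Both were also low in refed cells. DDIT4, an inhibitor of mTORC1, was at 229, 71.4 and 278 FPKM (-1.67) and was highest with serum restored.

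Of 46 genes on a list of hypoxia-induced genes, mostly outside glycolysis, 44 were compared. None was 2-fold higher and 14 were 2-fold lower, where 0.876% of all genes were. The 14 include PFKFB4, a regulator of glycolysis, which also counts among the 2-fold lower genes of the glycolysis list. At 1.5-fold 0 were higher and 30 lower, where 5.9% of all genes were. After either rescaling 12 were 2-fold lower. The list's median was -0.78 on the deposited scale, beside -0.07 for all genes. By both rescalings it became -0.70, beside all-gene medians of -0.002 by the median ratio and 0.005 by the upper quartile. The summed level of the list was 2413 FPKM in mock, 1008 in starved and 1479.6 in refed KO cells. Members with other roles lay on the same side. P4HA1 and P4HA2, subunits of collagen prolyl hydroxylase, were at 167 and 40.3 FPKM in mock and 71.9 and 18.8 in starved cells (-1.21 and -1.06). The HIF prolyl hydroxylase EGLN3, itself a HIF target, was at 16.6 and 5.60 FPKM (-1.42). FAM162A and BNIP3, mitochondrial proteins linked to cell death and mitophagy, were at 307 and 157 FPKM in mock and 126 and 83.4 in starved cells (-1.28 and -0.90). INSIG2, which retains the SREBP escort in the endoplasmic reticulum, was at 35.0, 9.94 and 11.4 FPKM in mock, starved and refed cells (-1.72).

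Some well-known members differed less. VEGFA, the angiogenic growth factor, was at 33.4, 30.6 and 37.4 FPKM (-0.12). The carbonic anhydrase CA12 was at 5.41, 3.89 and 3.94 FPKM (-0.39), still below the 25th percentile of all genes (-0.28). KISS1R and LOXL4 were higher in starved cells, at 5.87 and 9.03 FPKM (0.55) and 2.26 and 3.57 (0.49). A list of oxygen-sensing and HIF factors differed less than the hypoxia-induced list: of 11 compared, 0 were 2-fold apart, 1 was 1.5-fold lower and the median was -0.14. The lower gene was EPAS1, which encodes HIF-2 alpha, at 20.3 and 11.5 FPKM in mock and starved cells (-0.77). The hydroxylase EGLN3, given above, was counted on the hypoxia-induced list, so the contrast depends in part on how the lists were drawn. HIF1A was at 15.4 and 13.4 FPKM (-0.18), and its partner ARNT at 10.9 and 7.64 (-0.47). A transcript level does not measure HIF protein.

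Promoter sequence from RefSeq (GRCh38.p14) was searched for the core letters that HIF binds, ACGTG and GCGTG, on both strands of the 250 bases before each start. RefSeq entries matched 34 of the 44 genes, and 18 of the 34 held ACGTG (52.9%), against 18.7% of all 27305 promoters and 23.9% of those of compared genes. ACGTG or GCGTG was present in 29 (85.3%), against 43.1% and 58.3%. In the glycolysis list, whose genes were also lower, either word was in 14 of 25 matched promoters (56%), close to the share of compared genes. GCGTG alone was in 58.8% of the hypoxia promoters and 81.3% of those of cholesterol synthesis, whose genes were higher. These short words are common and a match is not a binding site. Stretches of 3 promoters are shown because their genes are among the lower ones and hold such words; capitals mark a match, and a match on the other strand reads CACGT or CACGC. They are ANGPTL4 (chr19:8363905-8364150, plus strand), DDIT4 (chr10:72273674-72273919, plus strand) and INSIG2 (chr2:118088221-118088451, plus strand).
ANGPTL4: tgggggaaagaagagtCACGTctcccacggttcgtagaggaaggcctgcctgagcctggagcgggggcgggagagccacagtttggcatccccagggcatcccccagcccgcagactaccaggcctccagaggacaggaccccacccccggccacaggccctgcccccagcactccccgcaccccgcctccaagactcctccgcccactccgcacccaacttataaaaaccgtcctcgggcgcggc
DDIT4: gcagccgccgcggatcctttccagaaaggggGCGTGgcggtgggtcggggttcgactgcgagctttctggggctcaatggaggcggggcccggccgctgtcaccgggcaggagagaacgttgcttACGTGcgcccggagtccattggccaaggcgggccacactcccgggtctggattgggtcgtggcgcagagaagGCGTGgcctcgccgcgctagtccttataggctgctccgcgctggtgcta
INSIG2: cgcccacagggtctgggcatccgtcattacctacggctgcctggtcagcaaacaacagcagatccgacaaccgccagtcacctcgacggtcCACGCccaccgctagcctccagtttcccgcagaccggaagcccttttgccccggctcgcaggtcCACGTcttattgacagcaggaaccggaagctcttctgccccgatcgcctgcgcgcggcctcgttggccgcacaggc

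Glycolytic genes were lower in starved KO cells from glucose entry to lactate. Hexokinase 2 (HK2), which traps glucose in the cell, was at 25.7 FPKM in mock, 8.33 in starved and 10.3 in refed cells (-1.51). GPI, the next enzyme, was at 355, 137 and 139.9 FPKM (-1.36), ENO2, a late-step enolase, at 192, 72.5 and 87.2 (-1.39), and PGK1, the first ATP-forming step, at 629, 293 and 289 (-1.10). None of these was near its mock level in refed cells. Abundant enzymes lay the same way by less: GAPDH was at 6542, 3865 and 3781 FPKM (-0.76) and LDHA, which makes lactate, at 1169, 753 and 745 (-0.63); both have processed pseudogenes, so their values are uncertain. SLC2A3, a high-affinity glucose transporter, was at 6.65, 1.72 and 7.35 FPKM (-1.49, or -0.79 with a pseudocount of 5), and the main transporter SLC2A1 at 317, 211 and 276 (-0.59). In refed cells both transporters were closer to their mock than to their starved level, unlike the enzymes named before them.

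Of 27 genes of glucose uptake and glycolysis, all compared, 8 were 2-fold lower and 0 higher, where 0.876% of all genes were lower. At 1.5-fold 16 were lower, where 5.9% of all genes were, and 12 and 11 were after median-ratio and upper-quartile rescaling. The median was -0.62 beside -0.07 for all genes. Triosephosphate isomerase (TPI1) and LDHB differed least among the abundant members, at 772 and 710 FPKM (-0.12) and 432 and 438 (0.02). PDK3, a kinase that keeps pyruvate out of mitochondria, was at 7.76 and 2.43 FPKM (-1.35). Subunits of the respiratory chain showed no such shift: of 69 compared, 0 were 1.5-fold apart in either direction and the median was -0.12.

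Enzymes of cholesterol synthesis had the highest median log2 ratio of the 48 lists examined. HMGCS1, which makes the HMG-CoA that feeds the pathway, was at 13.98 FPKM in mock, 47.1 in starved and 71.3 in refed KO cells (1.68). ACAT2, the thiolase before it, was at 27.3, 62.6 and 65.0 FPKM (1.17), and LSS, which closes the sterol ring, at 21.7, 49.0 and 50.6 (1.14). IDI1 and MVD, enzymes of the isoprenoid steps, were at 42.3 and 69.6 FPKM in mock, 86.6 and 141 in starved and 116 and 156 in refed cells (1.02 and 1.01). Each of the 5 was higher in starved than in mock and at least as high in refed cells as in starved ones.

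Of 21 genes of cholesterol and isoprenoid synthesis, all compared, 5 were 2-fold higher and 0 lower, beside 0.265% of all genes 2-fold higher, and 16 were 1.5-fold higher, beside 2.73%. The median was 0.89, and the sum was 735, 1348 and 1476 FPKM in mock, starved and refed cells. GGPS1, which makes geranylgeranyl diphosphate outside the sterol branch, was the 1 member below 0, at 9.18 and 6.98 FPKM (-0.35). Genes that sense or import sterol did not share the shift. Of 15 compared on that list (2 of its 17 genes, NPC1L1 and ABCA1, were under 1 FPKM), 0 were 1.5-fold higher and the median was -0.05. INSIG1, the sterol-regulated relative of INSIG2, was at 47.4, 64.8 and 124 FPKM in mock, starved and refed cells (0.44) and was highest with serum restored. SREBF2, which encodes SREBP2, was at 65.2 and 62.5 FPKM (-0.06). The letters TCACNCCAC, a sterol element, were in 0 of the 16 matched promoters of the synthesis list and in 0.875% of all promoters; no match says only that these letters are not in this window.

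Lipid genes beyond sterols were mixed. Of 16 fatty acid synthesis and activation genes compared, 0 were 2-fold apart and 3 were 1.5-fold higher, where 2.73% of all genes were on the deposited scale. After either rescaling 5 were 1.5-fold higher. The median was 0.30. The 3 on the deposited scale were FASN, the fatty acid synthase, at 107, 168 and 189 FPKM in mock, starved and refed cells (0.65), ACACA, which makes malonyl-CoA, at 14.4, 23.1 and 23.1 (0.64), and the elongase ELOVL6 at 14.1, 23.0 and 21.9 (0.67). Of 15 genes of fatty acid oxidation and ketone bodies, 2 were 1.5-fold lower, where 5.9% of all genes were. After either rescaling or with a pseudocount of 5 this count was 0, and the median was -0.20 on the main settings. PLIN2, which coats lipid droplets, was at 17.2 and 10.8 FPKM (-0.62).

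Cell-cycle genes split by phase. The MCM subunits, which form the replicative helicase, were higher in starved KO cells: MCM5 was at 24.0 FPKM in mock, 50.7 in starved and 49.8 in refed cells (1.05), MCM4 at 18.4, 34.4 and 33.6 (0.87) and MCM3 at 31.4, 57.2 and 55.9 (0.85). In refed cells all 3 were within 2 FPKM of their starved level. PCNA, the sliding clamp, was at 58.0, 102 and 94.5 FPKM (0.80), and UNG, which removes uracil from DNA, at 15.5, 38.2 and 36.1 (1.25). E2F1, a transcription factor for S phase, was at 7.72, 16.0 and 18.4 FPKM (0.96). Of 31 replication genes 1 was 2-fold and 8 were 1.5-fold higher, where 0.265% and 2.73% of all genes were. In this list 0 were 1.5-fold lower, and the median was 0.33. Of 23 genes of nucleotide supply and other E2F targets 1 was 2-fold and 5 were 1.5-fold higher, beside the same shares on the deposited scale. After either rescaling 9 were 1.5-fold higher. Here too 0 were lower, and the median was 0.32. Some replication genes were nearer to no difference: ORC1, of the origin complex, was at 7.92 and 6.93 FPKM (-0.17) and the polymerase gene POLD1 at 26.8 and 27.0 (0.01). Another polymerase gene, POLA1, had a log2 ratio of 0.32, near the median of the replication list. RRM2, a ribonucleotide reductase subunit, was at 51.6 and 42.2 FPKM (-0.28).

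An E2F motif, TTTNNCGC, was searched on both strands of the same window. It was in 14 of 28 replication promoters (50%), against 5.93% of all promoters and 9.21% of those of compared genes. Stretches from 2 MCM genes are shown because both are higher and hold it more than once; matches on the 2 strands overlap in MCM6, and capitals mark either. They are MCM3 (chr6:52284882-52284992, minus strand) and MCM6 (chr2:135876444-135876693, minus strand; 13.6, 23.9 and 23.5 FPKM in mock, starved and refed cells, log2 0.77).
MCM3: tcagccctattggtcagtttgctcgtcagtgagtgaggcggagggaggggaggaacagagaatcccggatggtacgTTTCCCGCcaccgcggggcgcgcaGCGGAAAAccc
MCM6: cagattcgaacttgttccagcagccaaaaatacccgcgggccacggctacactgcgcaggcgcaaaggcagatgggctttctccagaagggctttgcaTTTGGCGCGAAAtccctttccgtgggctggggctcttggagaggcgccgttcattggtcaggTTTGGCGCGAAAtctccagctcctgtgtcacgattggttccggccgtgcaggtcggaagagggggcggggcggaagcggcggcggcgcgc

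Genes of mitosis lay the other way. BUB1, a spindle checkpoint kinase, was at 35.4 FPKM in mock, 15.2 in starved and 13.5 in refed KO cells (-1.17). NUF2, a kinetochore subunit, was at 30.5, 15.1 and 14.98 FPKM (-0.97), TTK, the checkpoint kinase upstream, at 30.9, 15.3 and 12.3 (-0.97), and KIF20A, a cytokinesis motor, at 37.2, 19.3 and 14.8 (-0.91). CDC20, which activates the anaphase-promoting complex, was at 200.0, 111 and 111 FPKM (-0.85). In refed cells all 5 were at or below their starved level. All 34 members of the list were compared and all 34 were below 0, where 7359 of 12446 genes were. Of the 34, 1 was 2-fold and 14 were 1.5-fold lower, where 0.876% and 5.9% of all genes were. After either rescaling 33 were below 0 and 14 were still 1.5-fold lower. The median was -0.55, and the sum was 1690.2, 1155 and 1072 FPKM in mock, starved and refed cells. Not all members differed alike: FOXM1, the factor that drives many of these genes, was at 22.6, 21.5 and 21.1 FPKM (-0.07), and CCNB1, the cyclin of mitotic entry, at 64.8, 56.6 and 55.6 (-0.19).

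A further list held inhibitors of cyclin-dependent kinases, G1 cyclins, and MYC with related factors. Of 20 compared, 4 were 1.5-fold lower (3 after either rescaling), where 5.9% of all genes were, and 0 were 1.5-fold higher. The 4 included the inhibitors CDKN2D at 19.7 and 8.51 FPKM in mock and starved cells (-1.12) and CDKN1C at 25.5 and 16.4 (-0.61). The others were the MYC-related factors MXD1 at 5.397 and 2.29 (-0.96) and MXI1 at 53.8 and 31.5 (-0.75). CDKN1B, the p27 inhibitor linked to quiescence, was at 21.4 FPKM in mock, 18.9 in starved and 10.6 in refed cells (-0.17). CDKN1A was at 68.3, 50.7 and 89.3 FPKM (-0.42), and MYC at 122, 154 and 139 (0.34).

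The CCAAT box and the cell-cycle homology element TTTGAA were searched likewise. CCAAT was in 22 of 28 matched mitosis promoters (78.6%), against 33.0% of all promoters, TTTGAA in 14 (50%), against 13.6%, and both in 13 (46.4%), against 4.85%. CCAAT was also common in the promoters of lists that lay the other way, in 12 of 16 for cholesterol synthesis (75%) and 17 of 28 for replication (60.7%). The promoters of CDC20 (chr1:43358731-43358954, plus strand) and DLGAP5 (chr14:55191679-55191835, minus strand) are shown as lower genes that hold both. CCAAT on the other strand reads ATTGG and TTTGAA reads TTCAAA; DLGAP5, a spindle protein at 16.9, 9.07 and 8.46 FPKM in mock, starved and refed cells (-0.83), has its CCAAT matches nearer to the start than the stretch shown.
CDC20: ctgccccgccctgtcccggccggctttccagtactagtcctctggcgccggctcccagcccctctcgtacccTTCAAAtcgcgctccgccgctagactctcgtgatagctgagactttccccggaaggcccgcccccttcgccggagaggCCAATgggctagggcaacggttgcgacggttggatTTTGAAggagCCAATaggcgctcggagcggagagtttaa
DLGAP5: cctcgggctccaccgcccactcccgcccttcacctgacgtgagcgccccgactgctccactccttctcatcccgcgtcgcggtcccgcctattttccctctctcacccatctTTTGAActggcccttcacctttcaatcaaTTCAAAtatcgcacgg

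Interferon-stimulated genes were higher in starved KO cells, some from low levels. PARP9, an ADP-ribosyltransferase partner of the ligase DTX3L, was at 10.7 FPKM in mock, 30.6 in starved and 28.3 in refed cells (1.43). BST2, which tethers enveloped viruses, was at 1.43, 5.13 and 4.55 FPKM (1.33, or 0.65 with a pseudocount of 5). The RNA-binding effectors IFIT3 and IFIT1 were at 2.52 and 13.3 FPKM in mock, 7.48 and 31.0 in starved and 6.13 and 24.5 in refed cells (1.27 and 1.16). IFITM1, which blocks viral entry and has close paralogs, was at 7.16, 17.6 and 15.8 FPKM (1.18). All 5 were lower in refed than in starved cells but stayed above mock. Abundant members lay the same way: IFI6 was at 507, 877 and 846 FPKM (0.79), IFI27 at 184, 312 and 307 (0.76) and the ubiquitin-like modifier ISG15 at 867, 1384 and 1708 (0.67).

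Of 41 listed genes 36 were compared (IFI44L, MX2, OAS2, XAF1 and TRIM22 were under 1 FPKM). At 2-fold 5 were higher and 0 lower, where 0.265% of all genes were higher. At 1.5-fold 20 were higher and 0 lower, where 2.73% of all genes were higher. The median was 0.63, and with a pseudocount of 5 the higher counts were 1 and 12. The transcription factors of the pathway were above 0 by less, with IRF9 at 37.9 and 54.7 FPKM in mock and starved cells (0.52) and STAT2 at 13.5 and 17.0 (0.31). IRF1, which interferon gamma also induces, was at 6.84 and 6.35 FPKM (-0.09), and ISG20 was the lowest, at 5.46 and 3.45 (-0.54). Antigen presentation by MHC class I, also an interferon target, did not share the shift: of 18 genes 0 were 1.5-fold apart and the median was -0.20. Leukocyte markers had a summed level of 0.335 FPKM in mock and 0.637 in starved cells over 4 genes; PTPRC and MS4A1 were listed at 0 in both.

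The interferon-stimulated response element was searched as GAAA followed by any 2 bases and GAAA, on both strands. It was in 18 of 29 matched promoters of the list (62.1%), against 3.07% of all promoters and 2.19% of those of compared genes. Shown are IFIT3 (chr10:89327747-89327893, plus strand), IFIT1 (chr10:89392373-89392545, plus strand) and IFI6 (chr1:27672219-27672442, minus strand), with matches in capitals; on the other strand the element reads TTTC, any 2 bases, TTTC.
IFIT3: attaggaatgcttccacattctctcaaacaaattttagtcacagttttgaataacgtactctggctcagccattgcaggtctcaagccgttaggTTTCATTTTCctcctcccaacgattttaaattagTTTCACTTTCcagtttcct
IFIT1: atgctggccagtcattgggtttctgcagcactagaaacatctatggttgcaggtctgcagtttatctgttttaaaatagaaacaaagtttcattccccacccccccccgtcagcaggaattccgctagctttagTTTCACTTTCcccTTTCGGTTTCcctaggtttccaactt
IFI6: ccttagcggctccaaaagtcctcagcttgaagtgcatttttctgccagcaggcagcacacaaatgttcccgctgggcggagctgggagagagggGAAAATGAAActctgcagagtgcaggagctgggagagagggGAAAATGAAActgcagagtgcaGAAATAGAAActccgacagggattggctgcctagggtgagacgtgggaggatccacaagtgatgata

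**Figure D2:**
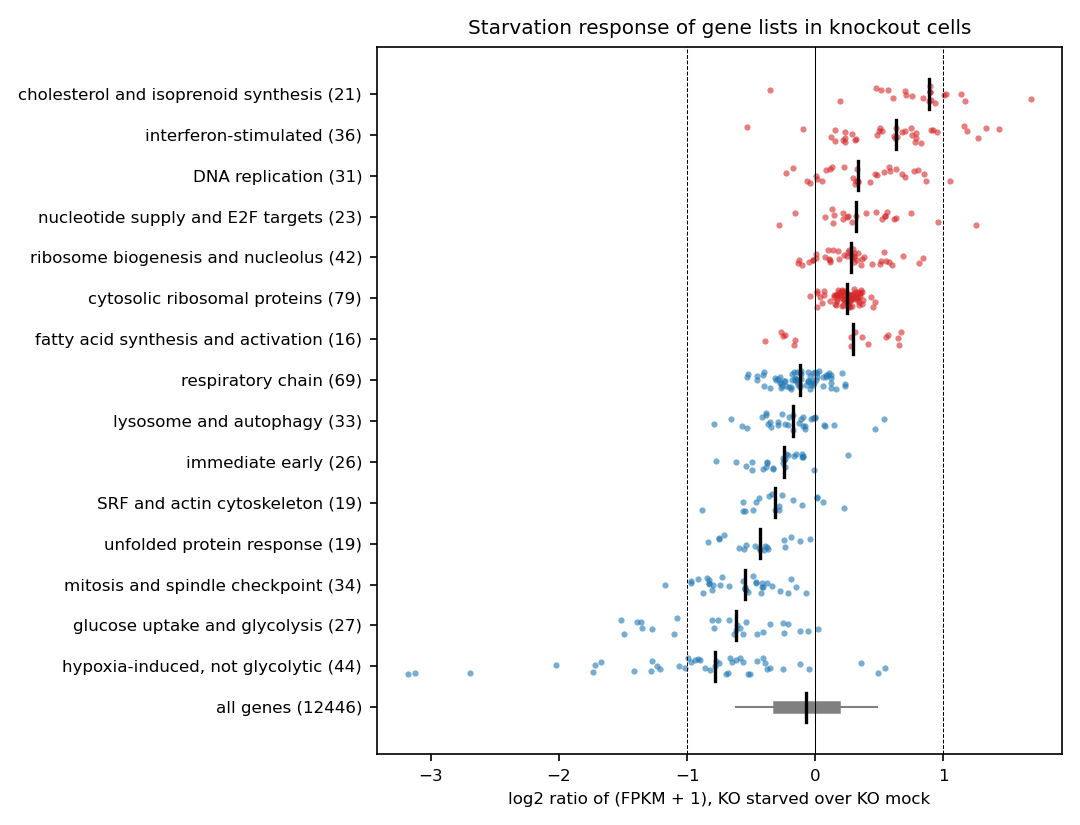
Log2 ratio of (FPKM + 1), starved over mock KO cells, for each compared member of 15 gene lists (points, spread vertically for visibility; number of members in brackets). Black bars are medians, the grey bar is the middle 50% and the thin line the 5th to 95th percentile of all 12446 genes, and dashed lines mark 2-fold; the sterol and interferon lists have medians of 0.89 and 0.63 and the hypoxia list one of -0.78.

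Genes that growth factors switch on lay mostly slightly below their mock level in starved KO cells, and several were far higher in refed cells. Of 29 immediate early genes, which growth factors induce within minutes, 26 were compared; 0 were 2-fold apart, 2 were 1.5-fold lower (1 after either rescaling), which is near the 5.9% of all genes, 25 were below 0 (24 after either rescaling), where 7359 of 12446 genes were, and the median was -0.25. KLF4 was at 42.6 FPKM in mock, 24.6 in starved and 85.5 in refed cells (-0.77), and FOSL1, an AP-1 subunit, at 34.6, 25.9 and 216 (-0.40). NR4A1, an orphan nuclear receptor, was at 26.6, 24.9 and 796 FPKM (-0.09), so its starved level was near its mock level while its refed level was above both. FOS was at 5.94, 5.17 and 55.7 FPKM (-0.17).

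Feedback genes of ERK and the EGF receptor had a few members with larger differences, while as a list they lay no lower than the immediate early genes: the median was -0.20, and 12 of 19 were below 0, or 10 after either rescaling. ERRFI1, which binds and inhibits EGF receptors, was at 189.7 FPKM in mock, 59.1 in starved and 149.5 in refed cells (-1.67). EPHA2, a receptor kinase induced by ERK, was at 59.3, 23.7 and 169 FPKM (-1.29), and DUSP5, a nuclear ERK phosphatase, at 61.5, 34.3 and 300.4 (-0.83). All 3 were lowest in starved cells. Of 19 compared, 3 were 2-fold lower, where 0.876% of all genes were. They were ERRFI1, EPHA2 and MYEOV, the last at 85.6, 37.0 and 47.3 FPKM (-1.19). At 1.5-fold 5 were lower, where 5.9% of all genes were, and 0 higher. DUSP6, a cytosolic ERK phosphatase, lay the other way, at 42.2, 58.4 and 70.0 FPKM (0.46). Among 27 receptor kinases and ligands 3 were 2-fold lower, PDGFA, EPHA2 and TGFA, beside the same 0.876% of all genes. TGFA, an EGF receptor ligand, was at 28.1, 10.1 and 13.0 FPKM (-1.38). AREG, another such ligand, was at 184, 95.4 and 578 FPKM (-0.94), and the receptor ERBB3 was higher in starved cells, at 8.41, 13.6 and 11.98 (0.63). PLAUR, the urokinase receptor, was at 103, 46.5 and 258 FPKM (-1.13).

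Cytoskeletal targets of SRF had 15 of 19 members below 0 on each of the 3 scales and a median of -0.31 (-0.24 and -0.23 rescaled), but 1 of 19 was 1.5-fold lower, near the 5.9% of all genes; that gene was gamma-actin, ACTG1, at 3139, 1703 and 2489 FPKM (-0.88), whose many pseudogenes make its value uncertain. YAP and TEAD targets, 20 compared, had 1 gene 2-fold lower, IGFBP3 at 4.57, 1.57 and 1.83 FPKM (-1.11), and a median of -0.13. CYR61 was at 14.7, 16.6 and 309 FPKM (0.17). Genes of FOXO and insulin signalling, some of which insulin signalling represses, were not higher as a list: of 22, 1 was 2-fold higher and the median was -0.23. At 1.5-fold 2 were higher and 2 lower, where 2.73% and 5.9% of all genes were. The 2-fold higher gene was PIK3IP1, an inhibitor of PI3K, at 1.06, 3.81 and 1.88 FPKM (1.22, under 5 FPKM in all 3 and named because it is the only one). The other higher gene was ERBB3, given above. FOXO3 was at 8.68 and 4.41 FPKM in mock and starved cells (-0.84).

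**Figure D3:**
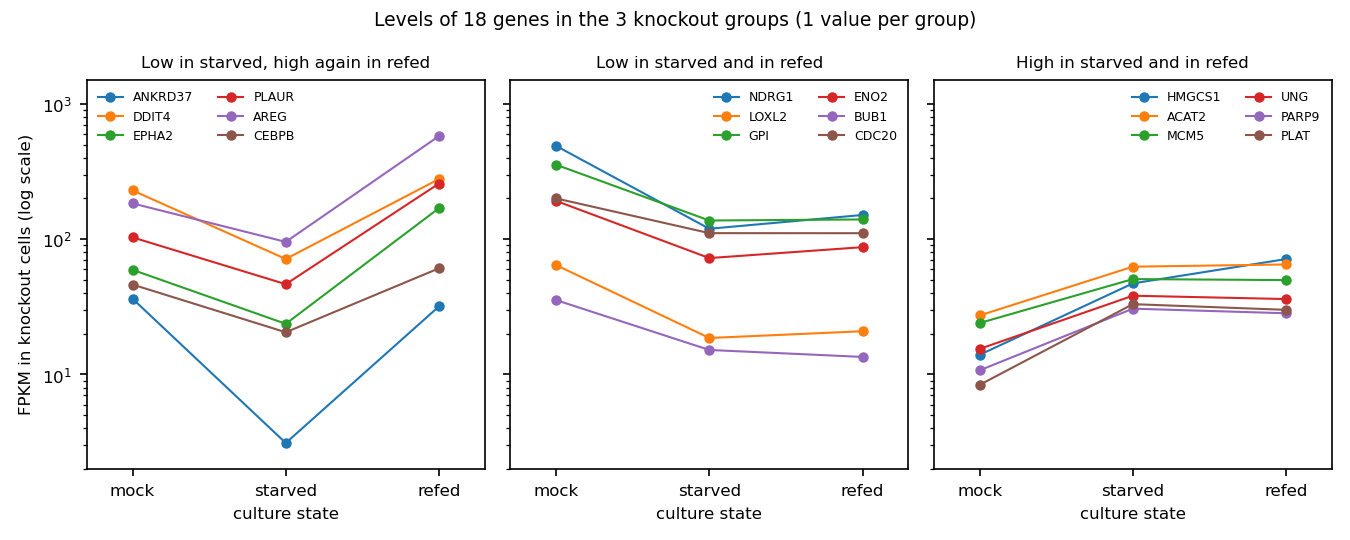
FPKM (log scale) of 18 genes in mock, starved and refed KO cells, 1 value per group joined by lines, chosen after their values were seen to show 3 patterns. The left panel holds genes such as DDIT4 and EPHA2 with their lowest value in starved cells, the middle panel genes such as NDRG1 and BUB1 that are low in both starved and refed cells, and the right panel genes such as HMGCS1 and UNG that are high in both.

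Genes of protein synthesis lay slightly above their mock level and those of protein folding in the endoplasmic reticulum below it. Of 79 cytosolic ribosomal protein genes 78 were above 0 on the deposited scale, where 5087 of 12446 genes were, and 79 after either rescaling, where 6182 and 6304 were, but 0 were 1.5-fold apart; their median was 0.25, and their summed level was 198040, 235582 and 228857 FPKM in mock, starved and refed KO cells. RPL23 was at 3011, 4161 and 3844 FPKM (0.47). These genes have many processed pseudogenes, and how the authors' counting treated them is not given in the sources used here. Of 42 genes of ribosome biogenesis 4 were 1.5-fold higher and 0 lower, where 2.73% of all genes were higher on the deposited scale. After either rescaling 9 were higher. The median of this list was 0.28, and NOP56, a small nucleolar ribonucleoprotein subunit, was at 71.7, 129 and 148 FPKM (0.84). The 74 mitochondrial ribosomal protein genes had a median of 0.03. Targets of the unfolded protein response lay below: all 19 were below 0 (18 after either rescaling), where 7359 of 12446 genes were on the deposited scale. At 1.5-fold 5 were lower, where 5.9% of all genes were, and the median was -0.43. HSPA5, the main chaperone of the endoplasmic reticulum, was at 254, 142 and 159.5 FPKM (-0.84), and HSP90B1 at 552, 328 and 321 (-0.75). Cytosolic heat shock chaperones had no such shift, with 1 of 19 at 1.5-fold and a median of -0.01.

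Several of the largest differences fall in none of these groups or stand alone in theirs. PLAT, tissue plasminogen activator, had the largest ratio on the higher side, at 8.39 FPKM in mock, 33.1 in starved and 30.0 in refed KO cells (1.86), while PLAU was at 32.8, 30.7 and 85.3 (-0.09). AXIN2, a negative-feedback target of Wnt signalling, was at 2.49, 8.98 and 6.90 FPKM (1.52, or 0.90 with a pseudocount of 5). It was the only 1 of 16 compared Wnt genes that was 2-fold apart. At 1.5-fold 3 were higher and 1 lower, where 2.73% and 5.9% of all genes were. The higher ones included BMP4 at 117, 193 and 250 FPKM (0.72) and the secreted Wnt inhibitor NOTUM at 36.9, 57.5 and 57.5 (0.63). The list's median was -0.16, or 0.18 among members at 5 FPKM or more. ATF5, a stress transcription factor, was at 3.40, 9.88 and 15.6 FPKM (1.31), whereas ATF4 was at 361 and 382 in mock and starved cells (0.08) and CEBPB at 46.2, 20.5 and 60.9 (-1.13). TMEM97, a sterol-regulated membrane protein, was at 11.96, 29.7 and 27.6 FPKM (1.24), SEPP1, the selenium carrier, at 7.81, 19.0 and 15.4 (1.18), and SAMD11 at 5.63, 13.7 and 13.6 (1.15).

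On the lower side, TNFRSF6B, a soluble decoy receptor for FAS ligand, was at 180.2, 28.7 and 38.9 FPKM in mock, starved and refed cells (-2.61). MKNK2, a kinase of the translation factor eIF4E, was at 95.01, 28.3 and 31.3 (-1.71), and SEMA4B, a semaphorin, at 67.7, 19.9999 and 19.9 (-1.71). All 3 were also low in refed cells. FA2H, which hydroxylates fatty acids, was at 23.5, 6.87 and 9.65 FPKM (-1.64), TMEM158 at 26.7, 7.95 and 14.9 (-1.63), and SERTAD2 at 38.1, 11.7 and 18.6 (-1.62). GDF15, a stress-induced cytokine and p53 target, was at 97.3, 35.6 and 116 (-1.42) and was the only 1 of 26 p53 targets that was 2-fold apart. Of NRF2 targets, 20 compared, 4 were 1.5-fold higher and 5 lower, where 2.73% and 5.9% of all genes were. The majority turned to 4 and 2 after either rescaling. The exporter ABCC2 was at 13.5, 29.8 and 31.3 FPKM (1.09) and the ferritin light chain FTL at 1633, 906 and 916 (-0.85).

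Adhesion genes lay mostly below 0. Of 24 integrin, laminin and collagen genes 17 were below 0, or 15 after either rescaling. Of 21 epithelial junction genes 19 were, or 16 after either rescaling. Among all 12446 genes 7359 were below 0 as deposited, and 6264 and 6142 after the median-ratio and upper-quartile rescalings. Of 24 integrin, laminin and collagen genes 6 were 1.5-fold lower (4 after either rescaling) and 1 higher, where 5.9% and 2.73% of all genes were, with a median of -0.24; 1 was 2-fold lower, ITGA6 at 28.8 and 12.1 FPKM in mock and starved cells (-1.19). Of 21 epithelial junction genes 4 were 1.5-fold lower (3 after either rescaling), 0 were higher and 0 were 2-fold apart, and their median was -0.30. Of the 19 enzymes that write, read or erase histone H3 lysine 9 methylation, the family to which KDM3A belongs, 1 was 1.5-fold apart, the demethylase KDM4B, a HIF target, at 22.6 and 12.8 FPKM (-0.78). The close KDM3A relatives KDM3B and JMJD1C were at 10.4 and 10.8 (0.05) and 6.35 and 6.76 (0.08).

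The KO response was then set beside the WT response, which shares no column with it, over the same 12446 genes. Across genes, which are not independent, the log2 ratios of the 2 genotypes had a Pearson r of 0.754 and a Spearman rho of 0.799. The WT mock culture stands apart: its 5 endothelial markers summed to 134 FPKM, against 0.259 and 0.285 in KO mock and starved cells, and 12 of the compared genes were at least 4-fold higher there than in the other 5 columns. Its values summed to 1149310 FPKM, of which 522127 were left without short RNA features, against 602778 and 565753 in KO mock. This column enters every WT ratio, and its part in the differences between genotypes was not tested. Without those 12, r was 0.780 and rho 0.7999. At 2-fold, 38 genes were higher in WT starved cells (0.305%) and 283 lower (2.27%). Of these, 10 were also higher in KO, which is 30.3% of the KO list and 26.3% of the WT list, and 63 were also lower, 57.8% of the KO list and 22.3% of the WT list. The median of all genes was -0.19 in WT and became -0.01 after median-ratio rescaling, so WT lists lie lower on the deposited scale by that much.

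Sterol, hypoxia, glycolysis, interferon and replication lists had close medians in KO and WT: 0.89 and 0.88, -0.78 and -1.04, -0.62 and -0.79, 0.63 and 0.50, and 0.33 and 0.31. After median-ratio rescaling the median KO minus WT difference per gene was -0.08 for sterol, 0.0075 for hypoxia and -0.02 for interferon genes. Mitosis genes were apart: the list's median was -0.55 in KO and -1.15 in WT, and the ratio was nearer to 0 in KO for 34 of 34 genes, where KO exceeded WT for 73.3% of all genes. This held for 34 of 34 after median-ratio rescaling (50.7% of all genes) and upper-quartile rescaling (46.6%), with median differences of 0.39 and 0.38 against 0.51 on the deposited scale. PTTG1, the securin, was at 158 and 94.7 FPKM in KO mock and starved cells (-0.73) and had a WT log2 ratio of -1.67. CDC20 had -0.85 in KO and -1.42 in WT, where it was at 176 and 65.1 FPKM. The summed level of the list was 1690.2 and 1155 FPKM in KO mock and starved cells and 1708 and 807 in WT. With 1 value per group the difference has no test. Other lists also had KO ratios mostly above those of WT. YAP and TEAD targets had medians of -0.13 in KO and -0.74 in WT, with KO above WT for 17 of 20 genes, or 15 and 14 after the rescalings, and a median difference of 0.41, or 0.33 and 0.32. For p53 targets the medians were -0.09 and -0.49, with KO above WT for 24 of 26 genes, or 22 after either rescaling, and a median difference of 0.30, or 0.17 and 0.15.

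NF-kB targets and chemokines lay the other way. Of 26 listed, 14 were compared, and in 0 of 14 was the KO ratio above the WT ratio, on the deposited scale and after either rescaling; the medians were -0.26 and 0.16. TNFRSF6B had -2.61 in KO and -1.28 in WT, where it was at 252 and 104 FPKM. TNFAIP2, which tumour necrosis factor induces, was at 34.2 and 29.2 FPKM in KO mock and starved cells (-0.22) and 26.4 and 45.6 in WT (0.77). The chemokine CXCL1 was at 1.56 and 1.49 FPKM in KO (-0.04) and 3.76 and 6.96 in WT (0.74). Cytosolic ribosomal protein genes had medians of 0.25 in KO and -0.06 in WT, which became 0.33 and 0.16 after median-ratio and 0.34 and 0.19 after upper-quartile rescaling; the median difference per gene, KO minus WT, was 0.30 as deposited and 0.17 and 0.15 rescaled. Fatty acid synthesis genes had medians of 0.30 in KO and -0.11 in WT, which became 0.38 and 0.076, and 0.38 and 0.10. Their median difference per gene was 0.23 as deposited and 0.10 and 0.08 rescaled. KO was above WT for 11 of 16 genes, or 11 and 10 after the rescalings. FASN, ACACA and SCD had 0.65, 0.64 and 0.55 in KO and higher ratios of 1.24, 0.72 and 0.79 in WT. ELOVL6 lay the other way, with 0.67 in KO and 0.33 in WT.

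Among the single genes with the largest differences between the responses were 4 with a far lower level in starved than in mock WT cells and low levels in KO mock and starved cells. THBS1, a matrix glycoprotein, had levels in mock, starved and refed culture of 1.30, 0.764 and 14.04 FPKM for KO and 175, 0.798 and 35.7 for WT. CTGF was at 1.34, 1.20 and 5.09 FPKM in KO and 62.3, 1.24 and 64.0 in WT. Both were higher in refed than in starved cells of either genotype. FN1 (fibronectin) was at 1.78, 0.857 and 0.833 FPKM in KO and 139.6, 0.950 and 0.980 in WT, and PRSS23 at 2.92, 3.22 and 3.11 against 20.2, 1.71 and 2.23, so these last were high in WT mock alone. In the other direction were TNFRSF6B and TNFAIP2, given above, KRT16 at 5.61 and 1.90 FPKM in KO (-1.19) against 0.433 and 0.254 in WT (-0.19), and NR2F1, an orphan nuclear receptor, at 4.17 and 2.16 (-0.71) against 94.6 and 115 (0.28). GPCPD1 had -0.33 in KO and 0.68 in WT, and UGDH-AS1 0.16 and 1.21; whether strand was used in counting is not given in the sources used here, so reads of this antisense RNA and its partner cannot be told apart. PLAT, with 1.86 in KO, was at 6.92 and 7.56 FPKM in WT mock and starved cells (0.11).

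**Figure D4:**
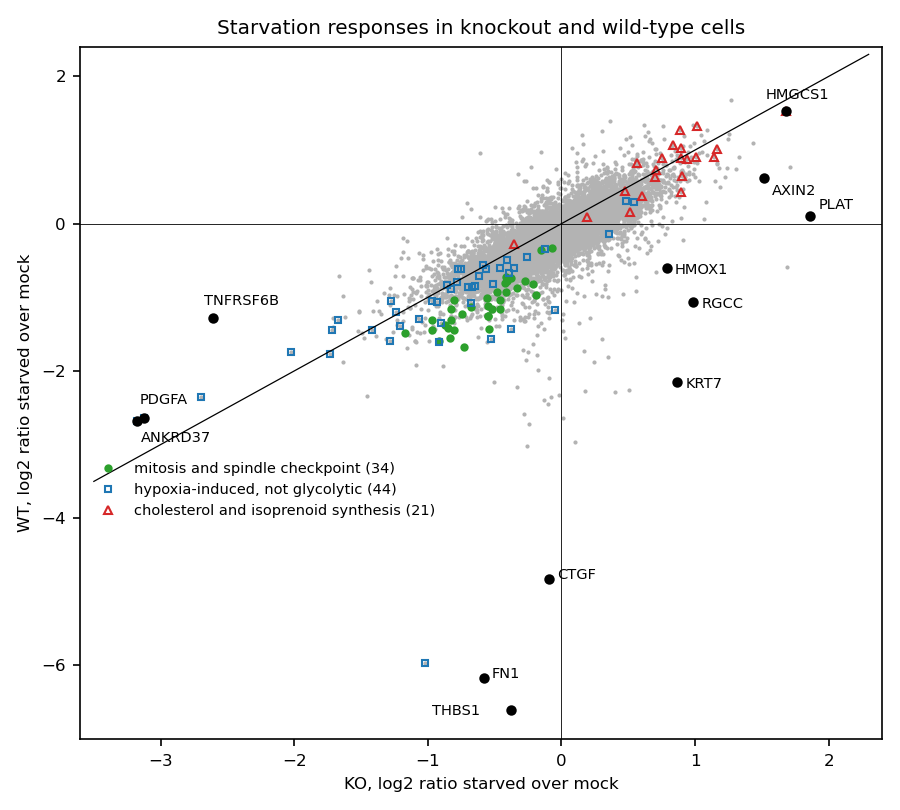
Log2 ratio of (FPKM + 1), starved over mock, in KO (horizontal) and WT (vertical) cells for 12446 genes, with 3 lists coloured, 12 genes named in black and the line of equal ratios. Mitosis genes (green) all lie below the line, while sterol genes (red triangles) lie around it, and THBS1, FN1 and CTGF lie far below it and have their highest level of the 4 columns in WT mock.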

How the data were processed

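RNA was sequenced from 12 labelled samples, 2 in each of 6 groups. Per the submitters' processing notes, reads were checked with FastQC, trimmed with cutadapt and aligned with TopHat2 to human genome build hg19. The authors deposited FPKM values, 1 column per group, filed under the sample labelled replicate 1 but named for the group; the program and annotation behind them, and how the samples of a group were combined, are not given in the sources used here. Values were used as deposited. Whole read counts were not derived from the low values, so no depth, interval or count test is given.

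Log2 ratios were taken of (FPKM + 1) over genes at 1 FPKM or more in either column, and called at 2-fold and 1.5-fold. Genes were matched by symbol, 25265 of 26372 to RefSeq. The 48 gene lists and the features described were chosen with earlier results of these data known. Genes named by rule were KDM3A, the 14 most different genes on each side that reached 5 FPKM, up to 5 members per list, and the 6 largest KO to WT differences in each direction; other named members were chosen after their values were seen. Endothelial, fibroblast, leukocyte and epithelial markers were checked. Some genes that the rule named are not reported here. Alternatives were pseudocounts of 0.1 and 5, no filter, a filter of 5 FPKM, 2 rescalings (the median ratio of genes and the upper quartile), and no short RNA features. Promoters are RefSeq GRCh38.p14, a later build than the files'. Python 3.11.15, numpy 2.4.6, pandas 2.3.3, scipy 1.17.1 and matplotlib 3.10.9 were used, and the calling step was tested on simulated data.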

Additional observations from a re-analysis of the deposited data

Results flagged for a closer look

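Among genes at 5 FPKM or more, 3 had starvation responses of opposite sign in KO and WT that were each 1.5-fold or more. The haem oxygenase HMOX1 was at 13.6 and 24.3 FPKM in KO mock and starved cells (log2 ratio 0.79) and 14.8 and 9.45 in WT (-0.60). The keratin KRT7, which has close paralogs, was at 7.89 and 15.2 FPKM in KO (0.87) and 25.2 and 4.91 in WT (-2.15). RGCC, a regulator of the cell cycle, was at 2.83 and 6.59 FPKM in KO (0.99) and 5.10 and 1.92 in WT (-1.06). With 1 value per group these differences were not tested. The WT mock column, in which 5 endothelial markers summed to 134 FPKM, enters each of the WT ratios, and its part in them was not tested.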

How the results depend on the processing

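No paired analysis was possible because each group has 1 column that carries no replicate number, and leaving out a replicate could not be run for the same reason. Over all 12716 features, 128 higher and 159 lower at 2-fold became 227 and 286 with a pseudocount of 0.1 and 45 and 60 with one of 5; the higher count was 76 with a filter of 5 FPKM and 33 without short RNA features. With a pseudocount of 5, 3 in place of 5 genes of cholesterol synthesis were 2-fold higher, 5 in place of 8 of glycolysis 2-fold lower and 3 in place of 5 of the unfolded protein response 1.5-fold lower. Of 230 named genes none reversed; with a pseudocount of 5 the log2 ratio of ANKRD37 moved to -2.35, the log2 ratio of AXIN2 to 0.90, the log2 ratio of BST2 to 0.65 and the log2 ratio of SLC2A3 to -0.79. Among KO lists with a median at least 0.1 from 0, those of 2 changed sign: Wnt targets to 0.18 with the filter of 5 FPKM, and leukocyte markers to 0.0013 without a filter. Medians nearer to 0 changed sign after median-ratio and upper-quartile rescaling for sterol sensing (-0.05 to 0.021 and 0.029), heat shock chaperones (-0.0072 to 0.075 and 0.083), polyamine and one-carbon genes (-0.05 to 0.033 and 0.041), ABC transporters (-0.014 to 0.052 and 0.058) and histone H3 lysine 9 enzymes (-0.05 to 0.011 and 0.018). With the filter of 5 FPKM those of sterol sensing (0.070), heat shock (0.017), ABC transporters (0.017) and TGF-beta feedback (-0.09 to 0.12) did so, without a filter sterol sensing (0.038) and heat shock (0.00057), and with a pseudocount of 5 keratins (0.04 to -0.0039). WT list medians turned positive after median-ratio and upper-quartile rescaling for cytosolic ribosomal proteins (-0.06 to 0.16 and 0.19), fatty acid synthesis (0.076 and 0.1011), heat shock chaperones (0.0623 and 0.0902), the BCL2 family (0.0357 and 0.055), ABC transporters (0.0352 and 0.0617), mitochondrial ribosomal proteins (0.0346 and 0.0624), polyamine and one-carbon genes (0.0993 and 0.1277) and iron handling (0.0274 and 0.0437), and after the latter for metallothioneins (0.0069). Without a filter they did so for intestinal (0.0001), fibroblast (0.0129) and leukocyte genes (0.0183). The rescalings add a constant to nearly every ratio; other causes were not tested. With depth unknown and 1 value per group, no error can be given for any difference.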
